A study of Homo sapiens with 21 samples.

Results

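Troponins and tropomyosins are the regulatory proteins of the sarcomeric thin filament. The transcripts of 10 thin filament genes were followed here through cardiomyocyte (CM) differentiation and in *UBE2B*-/- CMs: the troponin T genes *TNNT1* and *TNNT2*, the troponin I genes *TNNI1* and *TNNI3*, the troponin C gene *TNNC1*, the tropomyosin genes *TPM1*, *TPM2*, *TPM3* and *TPM4*, and the leiomodin gene *LMOD2*. Members were all rows carrying one of these gene symbols in 6 deposited differential expression tables. That gave 159 of 36579 rows, or 79 different transcripts out of 21537 listed in any table. The 10 genes have 177 transcripts in GENCODE 44.

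All cells derived from PGP1, an established human induced pluripotent stem cell (iPSC) line. Poly-A RNA was sequenced from 21 libraries, 3 in each of 7 groups. Wild type cells were collected at 5 stages: as iPSCs, as mesoderm (M), as mesoderm of the cardiac lineage (CMes), as progenitors (CP) and as CMs, and every wild type replicate was grown on a plate started on another occasion. The 6 *UBE2B*-/- libraries came from CMs of 2 edited lines, each the product of its own editing experiment, with 3 libraries a line. *UBE2B* encodes a ubiquitin-conjugating enzyme of the complex that places monoubiquitin on histone H2B. Differentiation was driven by the GSK3 inhibitor CHIR99021 followed by the Wnt inhibitor IWP4, and beating CMs were enriched with lactate medium. Lactate is described only for cells after the onset of beating, so CP and CM can differ in this selection as well as in stage. Mutant cells were seeded at higher number than wild type, and RNA was taken from the wells that beat, so plating and selection of wells differed between genotypes.

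In striated muscle, tropomyosin dimers lie end to end along actin and cover the sites that myosin binds. Troponin C binds calcium, troponin I holds the filament off at rest, and troponin T anchors the complex to tropomyosin. Each subunit has several genes, and the heart changes which of them it uses as it matures: slow skeletal troponin I (*TNNI1*) is the form of the fetal heart and *TNNI3* that of the adult. Tropomyosin genes are also spliced into many products, with alternative first, internal and last exons that distinguish muscle from non-muscle forms. Leiomodin 2 nucleates actin and lengthens thin filaments.

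The tables listed transcripts with a q-value of at most 0.05 in a Wald test, and held no value for any single library. The level of a group is therefore the geometric mean of its 3 libraries in estimated counts, recovered from the fit, and the error of a change is the standard error (SE) of that fit. A transcript was called when its q-value was at most 0.05 and its change at least 1.79-fold. A level of exactly 0 in all 3 libraries was recognised from the pseudocount of 0.5, and folds against it were computed against a floor of 3 counts per library. Each table was normalised on its own, so a stage has slightly different counts in neighbouring tables. Adjacent transitions share the libraries of 1 stage, and both *UBE2B*-/- lines share the wild type CM libraries. All 9 cardiomyocyte markers examined were called higher from CP to CM and 4 of 5 pluripotency markers lower. A *UBE2B* transcript without a defined coding sequence was listed for line 1, and no *UBE2B* transcript for line 2. It was at 179 counts in wild type and 47.1 in line 1 (log2 change -1.91, SE 0.53, q = 0.0113).

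The number of thin filament transcripts listed grew from transition to transition. From iPSC to M, 9 member transcripts of 2 genes were listed, of which 1 was called higher and 8 lower, against a background of 1.24% higher and 1.62% lower among all transcripts tested. From M to CMes, 13 were called higher and 0 lower, where 3.81% and 2.65% of all transcripts were called. From CMes to CP, 31 were higher and 3 lower, beside 3.8% and 2.63% overall. From CP to CM, 46 were higher and 15 lower, with backgrounds of 8.25% and 6.99%, and transcripts of all 10 genes were listed. Set against the number of annotated transcripts, 177, the called members came to 26.0% higher and 8.47% lower from CP to CM. The higher calls include 3 transcripts outside GENCODE 44, which are not among the 177. How many of the 177 were tested is not known from these tables. The median log2 change of the listed members was -1.69, 1.63, 3.83 and 4.60 in order of stage, against -0.47, 0.57, 0.40 and 0.63 for all listed transcripts. A t distribution on the 4 residual degrees of freedom was also tried in place of the normal distribution. With it, over all genes, 561 of the 69937 transcripts tested stayed called from CP to CM, 1 from CMes to CP and 0 before that. Among members, 14 higher calls were kept from CP to CM and none at the earlier transitions. All 9, 15 and 35 listed members there had an unadjusted p under 0.05 with it, which the listing rule fixes in advance.

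**Figure D1:**
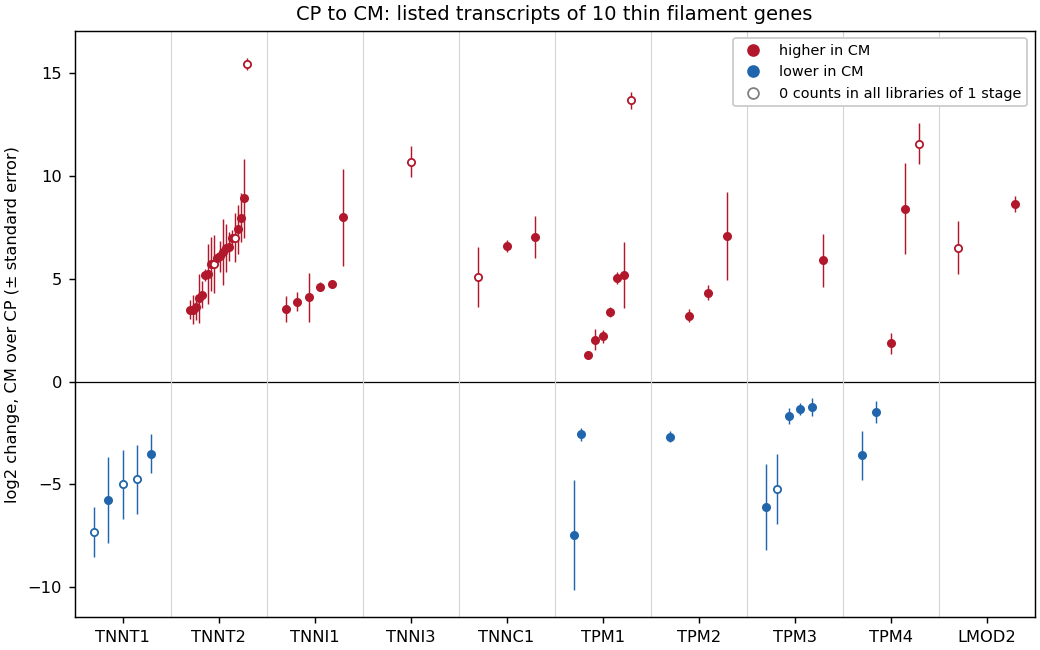
Change of each listed transcript of the 10 genes from CP to CM. Each point is 1 transcript, the vertical axis is the log2 change of CM over CP with its standard error, and open points had 0 counts in all 3 libraries of 1 stage, so their fitted size depends on the pseudocount. *TNNT2*, *TNNI1*, *TNNI3*, *TNNC1* and *LMOD2* have only higher transcripts, *TNNT1* only lower ones, and the 4 tropomyosin genes have both.

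Cardiac troponin T rose from a trace to one of the most abundant messages of the thin filament. No *TNNT2* transcript (chr1:201359008-201377764, minus strand) was listed up to CMes. Between CMes and CP, 8 were called higher, and TNNT2-207 (ENST00000412633.3), the one with the highest mean, went from 17.7 to 310 counts (log2 change 4.10, SE 1.40, q = 0.035). The largest z belonged to a transcript outside GENCODE 44 (ENST00000458432.6), at 0 in all 3 CMes libraries and at 139.7 counts at CP. Between CP and CM all 20 listed transcripts rose. TNNT2-207 reached 17821 counts from 275 (6.02, SE 0.24). TNNT2-204 (ENST00000367318.9) was at 0 in all 3 CP libraries and at 22201 in CM, at least 7400.5-fold higher. Summed over the 9 listed coding transcripts with an annotated structure, *TNNT2* went from 542 to 57070 counts. In bulk RNA, more cells of a type and more RNA per cell cannot be told apart.

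The coding transcripts of *TNNT2* differ by small exons, so reads are shared and the division between them is an estimate. TNNT2-204 and TNNT2-207 differ by 1 coding exon of 9 bases, which bears on the 0 of the former at CP. The technical share of the variance was 42.0% for TNNT2-207 from CP to CM and 96.6% from CMes to CP. A 30-base exon that is a mark of the embryonic heart form is printed here because its inclusion separates 3 listed coding transcripts (TNNT2-205, TNNT2-208 and TNNT2-211) from the other 6. It is in capitals throughout, since the whole exon is the feature, and coordinates are those of GRCh38.
*TNNT2* 30-base exon (chr1:201369816-201369845, minus strand): AAGAGGAGGACTGGAGAGAGGACGAAGACG
Transcripts with this exon held 221 of 542 counts at CP, or 40.8%, and 6549 of 57070 at CM, or 11.5%. ENST00000458432.6 has no annotated structure and is not in these sums. It held 124 counts at CP and 1516 at CM, and whether it has the exon is not known here. Both classes rose, TNNT2-211 with the exon from 154 to 5538 counts (5.17, SE 0.30) and TNNT2-207 without it as given above. These shares are sums of group means and carry no error.

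Slow skeletal troponin T ran the other way. *TNNT1* (chr19:55132698-55149206, minus strand) was already present in iPSCs, where TNNT1-203 (ENST00000585321.6) had 250.2 counts, and it was lower at M with 138 (-0.86, SE 0.26, q = 0.022). It was higher again at CMes, from 148 to 477 counts (1.69, SE 0.26), while TNNT1-207 (ENST00000587465.6), the listed *TNNT1* transcript with the highest mean there, had 271 and 414 counts (0.61, SE 0.21) and was not called. From CMes to CP both listed transcripts were lower, TNNT1-207 from 416 to 216 counts (-0.95, SE 0.32) and TNNT1-206 (ENST00000587089.6) from 157 to 65.7 (-1.25, SE 0.33). From CP to CM all 5 were lower. TNNT1-203 went from 293 to 25.4 counts in that last step (-3.50, SE 0.95, q = 0.0023), with a technical share of 88.7% of its variance. TNNT1-215 (ENST00000593046.5) fell from 78.98 counts to 0 in all 3 CM libraries, at least 26.3-fold lower. Per kilobase of transcript, TNNT1-203 and TNNT2-207 stood at 295 and 248 counts at CP, a log2 difference of -0.25 with an SE of 0.69. At CM they were 25.6 and 16084, a log2 ratio of 9.30 with an SE of 0.69.

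Among the troponin I genes, the fetal form appeared first and stayed ahead. In *TNNI1* (chr1:201403784-201429866, minus strand), TNNI1-201 (ENST00000336092.8) was at 0 in all 3 M libraries and at 58.6 counts at CMes, at least 19.5-fold higher. It reached 1167 counts at CP in the next table (4.30, SE 0.23), and from CP to CM it went from 1033 to 27322 (4.72, SE 0.15), with all 6 listed transcripts higher. *TNNI3* (chr19:55151767-55157773, minus strand) was listed only from CP to CM. Its transcript TNNI3-201 (ENST00000344887.9) was at 0 in all 3 CP libraries and at 814 counts in CM, at least 271-fold higher. Per kilobase, the CM level of TNNI1-201 was 15612 and that of TNNI3-201 was 965, a ratio of 16.2 (log2 4.02, SE 0.54).

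Troponin C, the calcium sensor that slow skeletal and cardiac muscle share, came on early and then again late. *TNNC1* (chr3:52451100-52454041, minus strand) rose from 45.5 to 435 counts between M and CMes in TNNC1-201 (ENST00000232975.7; 3.24, SE 0.29). No *TNNC1* transcript was listed at the next step. From CP to CM, TNNC1-201 went from 254 to 24706 counts (6.60, SE 0.29), and the other listed pair rose as well. *LMOD2* (chr7:123655866-123664290, plus strand) was not listed before CP to CM. There LMOD2-202 (ENST00000458573.3) went from 8.70 to 3597 counts (8.61, SE 0.39), and LMOD2-201 (ENST00000456238.2) from 0 in all 3 libraries to 44.9.

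**Figure D2:**
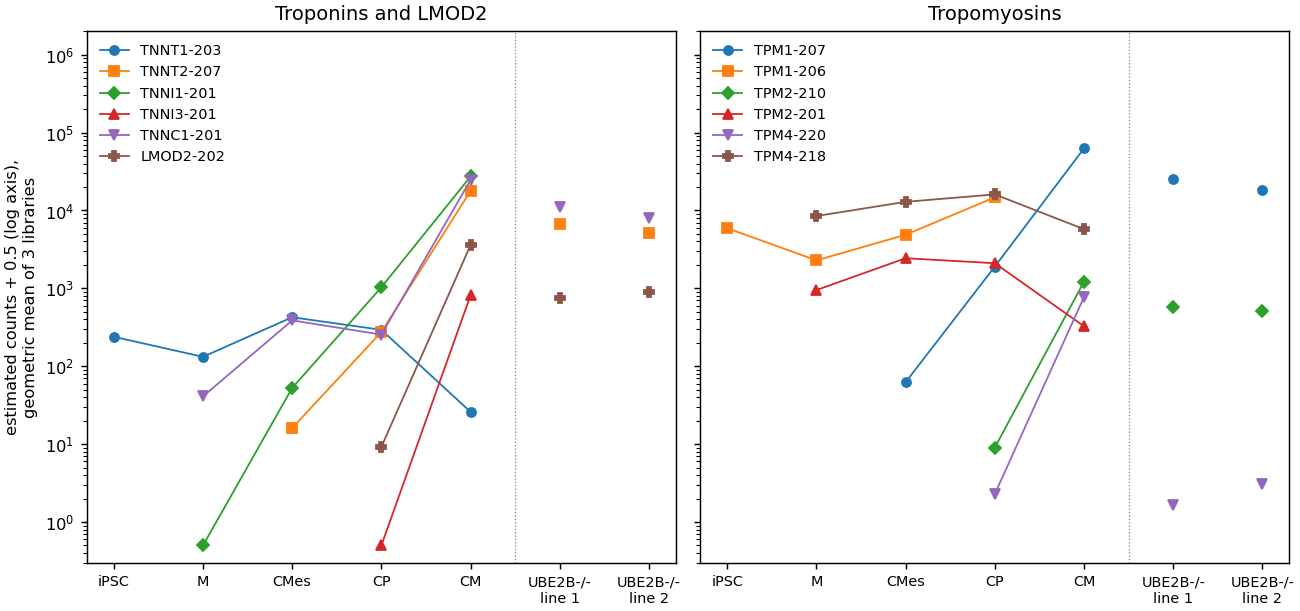
Levels of 12 transcripts by stage and in both *UBE2B*-/- lines. The vertical log axis is the geometric mean of 3 libraries in estimated counts plus 0.5, set on the scale of the CP to CM table by the offset of shared transcripts. A missing point means that no table lists the transcript at that stage. TPM1-206 is the exception, as it is listed for line 2 but its CM and line levels could not be solved to a single value. TNNI3-201 and TNNI1-201 start from 0 counts, TNNT1-203 ends at 25.4, and the tropomyosin pairs TPM2-201 with TPM2-210 and TPM4-218 with TPM4-220 move in opposite directions from CP to CM.

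The genes were ordered at CP and CM by level per kilobase, each through its highest coding transcript among those listed from CP to CM. The CP order was *TPM4* (6497), *TPM1* (4814), *TPM3* (2551), *TPM2* (2065), *TNNI1* (590.3), *TNNC1* (370.04), *TNNT1* (295), *TNNT2* (248) and *LMOD2* (3.81), with *TNNI3* at 0. The 4 tropomyosin genes thus stood first. TPM1-206, which the CP to CM table does not list, was at 8587 counts per kilobase at CP on the same scale, so with it *TPM1* stood above *TPM4*. At CM the order was *TPM1* (51451), *TNNC1* (35962), *TNNT2* (19561), *TNNI1* (15612), *TPM4* (2327), *LMOD2* (1573), *TPM3* (1080.1), *TPM2* (1028), *TNNI3* (965) and *TNNT1* (25.6). The 95% interval of the gap between neighbours in the CM order excluded 0 at 3 places, after *TNNC1*, after *TNNI1* and after *TNNI3*. Between *TPM4* and *TNNI3* no neighbouring pair differed beyond its error. Apart from the troponin T and troponin I pairs given above, genes further apart in the order were not compared. The order is one of single transcripts, and a gene with counts spread over many transcripts stands lower in it. Summed per kilobase over listed coding transcripts, *TNNT2* was at 50774 at CM and *TNNC1* at 36260, the reverse of their order above. At CP the sums were 575 for *TNNT1*, 491 for *TNNT2* and 372 for *TNNC1*. These sums carry no error.

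Among the tropomyosins, *TPM1* (chr15:63042620-63071915, plus strand) had 24 listed transcripts, more than any other member. From iPSC to M, 7 of its 8 listed transcripts fell, among them TPM1-206 (ENST00000358278.7) from 6210 to 2399 counts (-1.37, SE 0.16), and TPM1-232 (ENST00000610733.1), with the largest z, from 474 to 29.3 (-3.99, SE 0.44). Opposite to these, TPM1-208 (ENST00000404484.9) rose from 2.32 to 130 (5.53, SE 1.27). From M to CMes all 8 listed were higher, TPM1-206 from 2566 to 5471 (1.09, SE 0.20) and TPM1-216 (ENST00000558910.3), with the largest z, from 90.2 to 280.2 (1.63, SE 0.25). TPM2-201 (ENST00000329305.6) was also higher there, from 1066 to 2734 counts (1.36, SE 0.22), and TPM4-218 (ENST00000643579.2) had 9516.5 and 14484 (0.61, SE 0.13), under the limit on size. From CMes to CP, 18 rose and TPM1-208 fell from 36.9 counts to 0 in all 3 libraries, at least 12.3-fold. TPM1-206 went from 5505 to 16648 counts in that step (1.60, SE 0.18), and TPM1-205 (ENST00000357980.8), which had the largest z of the gene, from 319 to 4548 (3.83, SE 0.29). The technical term made up 88.1% of the variance of TPM1-205 at this step and 0.934% of that of TPM1-206.

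From CP to CM, 7 *TPM1* transcripts rose and 2 fell. TPM1-207 (ENST00000403994.8) went from 1903 to 62616 counts (5.04, SE 0.29) and was the most abundant member transcript of the CM. TPM1-229 (ENST00000561266.6) was at 0 in all 3 CP libraries and at 6523 in CM, at least 2174-fold higher. TPM1-205 fell from 4027 to 683 (-2.56, SE 0.31), and the retained-intron transcript TPM1-233 (ENST00000644204.1) from 557 to 2.68 (-7.46, SE 2.69, q = 0.033). TPM1-206 was not listed for this step. Its level was 14744 counts at CP, and 7950.2 or 9359 at CM, the 2 values that the variance columns of the *UBE2B* fit allow, so a change cannot be called from these tables.

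The other tropomyosin genes also had transcripts called in each direction from CP to CM. TPM2-201 fell from 2102 to 326 counts (-2.69, SE 0.27), while TPM2-207, TPM2-208 and TPM2-210 rose, the last (ENST00000647435.1) from 8.53 to 1218 (7.08, SE 2.13, q = 0.0072). Of 6 listed *TPM3* transcripts 5 fell, including TPM3-206 (ENST00000330188.13) from 5378 to 2277 (-1.24, SE 0.42, q = 0.020), and TPM3-210 (ENST00000368530.7) rose from 1.24 to 102 (5.88, SE 1.27). TPM4-218 fell from 16073 to 5756 (-1.48, SE 0.54, q = 0.036), and TPM4-201 also fell. TPM4-219, TPM4-220 and TPM4-222 rose, with TPM4-222 (ENST00000647037.1) going from 0 in all 3 CP libraries to 1514 counts, at least 505-fold higher. TPM4-219 and TPM4-222 are annotated for nonsense-mediated decay, so they are not known to give protein, and TPM4-220 (ENST00000646575.1) is coding. *TPM2* lies at chr9:35681992-35690056 and *TPM3* at chr1:154155308-154194648, both on the minus strand, and *TPM4* at chr19:16067021-16103002 on the plus strand.

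A structural feature that the choice of genes did not use ran through these splits, and it was looked for after the changes had been seen. Of the listed tropomyosin transcripts, 20 could be assigned by the exon that ends the coding sequence. In each gene these transcripts used a pair of alternative exons, an upstream one and a downstream one. The first 79 coding bases of both are printed from GRCh38, 5′ to 3′, because they tell the transcripts apart, and capitals mark bases that differ from the partner exon of the same gene.
*TPM1* upstream last coding exon (chr15:63064064-63064142, plus strand): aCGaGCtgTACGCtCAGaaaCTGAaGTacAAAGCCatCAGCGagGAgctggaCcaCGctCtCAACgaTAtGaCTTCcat
*TPM1* downstream last coding exon (chr15:63071090-63071168, plus strand): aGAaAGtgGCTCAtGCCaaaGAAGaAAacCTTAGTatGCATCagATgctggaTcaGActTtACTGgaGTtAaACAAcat
*TPM2* upstream last coding exon (chr9:35683163-35683241, minus strand): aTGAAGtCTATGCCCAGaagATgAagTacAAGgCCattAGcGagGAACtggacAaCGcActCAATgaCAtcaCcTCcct
*TPM2* downstream last coding exon (chr9:35682085-35682163, minus strand): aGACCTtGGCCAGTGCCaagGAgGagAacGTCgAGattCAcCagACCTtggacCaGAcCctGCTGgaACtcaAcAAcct
*TPM3* upstream last coding exon (chr1:154169305-154169383, minus strand): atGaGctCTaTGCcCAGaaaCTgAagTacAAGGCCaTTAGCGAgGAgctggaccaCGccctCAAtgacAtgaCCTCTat
*TPM3* downstream last coding exon (chr1:154157643-154157721, minus strand): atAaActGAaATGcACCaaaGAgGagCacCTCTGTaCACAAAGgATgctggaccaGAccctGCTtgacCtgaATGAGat
*TPM4* upstream last coding exon (chr19:16095264-16095342, plus strand): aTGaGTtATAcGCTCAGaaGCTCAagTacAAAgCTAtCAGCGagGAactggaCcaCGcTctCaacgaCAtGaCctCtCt
*TPM4* downstream last coding exon (chr19:16101264-16101342, plus strand): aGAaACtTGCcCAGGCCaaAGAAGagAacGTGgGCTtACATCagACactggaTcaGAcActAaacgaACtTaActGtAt
Within a gene the partner exons were 41.8% to 49.4% identical over these bases. Between genes the upstream exons were 77.2% to 87.3% identical and the downstream exons 57.0% to 69.6%.

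From CP to CM, 10 transcripts with an upstream last coding exon were listed, of which 9 were called higher and 1 lower. Of 5 with a downstream one, 1 was called higher and 4 lower. The exceptions were TPM3-205 (ENST00000328159.9), a short form with the upstream exon that fell from 1874 to 746 counts (-1.33, SE 0.30), and TPM1-220 (ENST00000559556.5), which has the downstream exon and rose from 4703 to 11548 (1.30, SE 0.17). TPM1-220 and TPM1-226 (ENST00000560970.6) share every coding exon but the last, and TPM1-226, with the upstream one, rose by more, from 447 to 4631 counts (3.37, SE 0.23). In summed counts the upstream share went from 0.404% to 78.9% for *TPM2* (1 transcript of each class) and from 0.382% to 30.3% for *TPM4* (3 and 1). Most of the upstream *TPM4* counts at CM were on TPM4-222 (1514) and TPM4-219 (217), both annotated for nonsense-mediated decay and both among the 9 called higher. The coding TPM4-220 held 771 counts at CM, beside 5756 of the downstream TPM4-218. For *TPM1*, with TPM1-206 included at either of its possible CM levels, the share was 10.7% at CP and 77.8% or 78.9% at CM (4 and 3 transcripts), and without it 24.3% and 86.1%. For *TPM3* it was 25.9% and 27.1% (2 and 1). No test was made of these shares, since transcripts of a gene share reads and are not independent, and they count mainly transcripts listed because they changed at this step. From CP to CM, 20 of the 61 listed members had more than 50% of their variance from the technical term. Markers of other cell types moved at the same step. Of 7 fibroblast or mesenchymal genes 4 were lower and 2 higher, with *COL3A1* at -2.02 (SE 0.44), *LUM* at -3.66 (SE 0.46) and *PDGFRA* at -3.004 (SE 0.32). Of 6 endoderm or epithelial genes 4 were lower, *TTR* by the largest z (-4.81, SE 0.29), of 5 endothelial genes 2 were lower, and all 5 smooth muscle genes were higher. Their part in the tropomyosin changes was not tested.

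**Figure D3:**
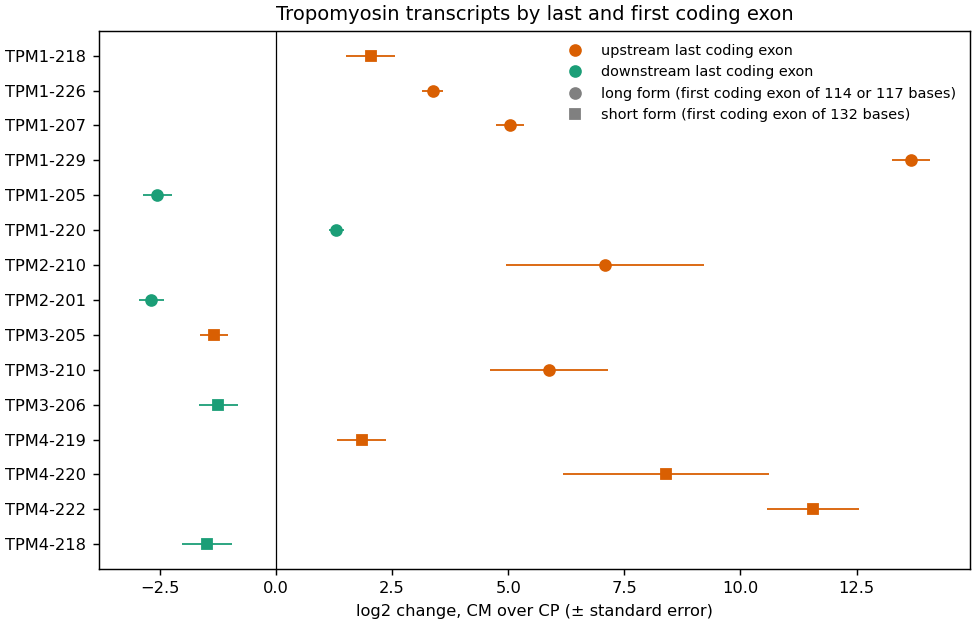
Change from CP to CM of 15 tropomyosin transcripts with a complete end. The horizontal axis is the log2 change of CM over CP with its standard error, colour gives the last coding exon, and circles and squares give the long and short forms set by the first coding exon. All upstream-exon transcripts but TPM3-205 lie right of 0, and all downstream-exon transcripts but TPM1-220 lie left of it.

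In the *UBE2B*-/- CMs, the comparison asks how loss of the enzyme bears on cardiomyocyte transcripts. Most listed members were lower than in wild type. In line 1, 13 member transcripts of 6 genes were called lower and 1 higher, where 1.72% and 2.18% of all tested transcripts were called in those directions. In line 2, 21 transcripts of 6 genes were lower and 4 higher, with backgrounds of 1.53% and 2.46%. The median log2 change of listed members was -1.48 in line 1 and -1.70 in line 2, against 0.73 and 0.87 for all listed transcripts. *TNNI3* and *TPM3* were listed in neither line. A t distribution on 6 degrees of freedom kept 0 of these calls in either line, and 0 calls over all genes. All 14 and 25 listed members had an unadjusted p under 0.05 with it, which the listing rule fixes in advance.

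Transcripts of *TNNT2*, *TNNI1*, *TNNC1* and *LMOD2* were called lower in both lines. LMOD2-202 went from 4151 counts in wild type to 855 in line 1 and 1031 in line 2 (-2.28 and -2.01, SE 0.32 for each). TNNT2-207 went from 20565 to 7742 and 5917 (-1.41 and -1.80, SE 0.29), and TNNT2-204 from 25620 to 9214 and 7490.2 (-1.48 and -1.77, SE 0.42). TNNT2-209 (ENST00000438742.6), with the largest z of the gene, went from 1933 to 745 and 661 (-1.37 and -1.55, SE 0.22). TNNC1-201 went from 28510 to 12705 and 9310.0 (-1.17 and -1.61, SE 0.38, q = 0.048 and 0.0017). TNNI1-205 (ENST00000555948.5), the *TNNI1* transcript listed here, went from 3263 to 1115 and 912 (-1.55 and -1.84, SE 0.43). TNNC1-203 (ENST00000496590.1) was listed lower in line 2 (-1.68, SE 0.36), and its solved change in line 1 was -0.99. TNNI1-201, the most abundant one at CM, was listed in neither line.

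All *TNNT2* transcripts listed in the mutants were lower. Log2 changes ran from -1.37 to -1.87 over the 5 listed in line 1 and from -1.55 to -2.14 over the 11 listed in line 2, and TNNT2-211 and TNNT2-205, which carry the 30-base exon, were lower in both lines (-1.87 and -1.90, SE 0.43, for the former). The share of counts on transcripts with that exon over 8 transcripts was 11.03% in wild type, against 8.67% and 10.4% in the lines. *TNNT1* was the exception among the troponins. TNNT1-215 was at 0 in all 3 wild type CM libraries and at 25.5 counts in line 1 and 57.9 in line 2, at least 8.51-fold and 19.3-fold higher (q = 2.0e-04 and 2.1e-06). This is the transcript that had fallen to 0 from CP to CM. With a mean under 10 counts over the 9 libraries, it is lost as a call in line 1 under a filter at that level, and so in line 2.

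For *TPM1*, the transcripts called lower in both lines were TPM1-207 and TPM1-226, both with the upstream exon, and the transcripts called higher, in line 2, both have the downstream exon. TPM1-207 went from 72256 counts to 29411 in line 1 and 20967 in line 2 (-1.30 and -1.78, SE 0.34), and TPM1-226 from 5344 to 823 and 652 (-2.70 and -3.03, SE 0.61). TPM1-220 was listed lower in line 1 (-1.33, SE 0.30), and its change in line 2, solved from the variance columns, was -0.72. TPM1-206 and TPM1-205 were higher in line 2 (1.61, SE 0.39, and 1.67, SE 0.41). In line 1 they were not listed, and the solved changes were 0.42 for TPM1-205 and either 0.45 or 1.16 for TPM1-206. Over 6 *TPM1* transcripts, the share of counts on the upstream exon depended on which value TPM1-206 takes. It was 76.2% for wild type, 59.1% for line 1 and 33.2% for line 2 with the smaller line 1 change, and 77.4%, 53.2% and 36.0% with the larger. Without TPM1-206 it was 85.0%, 82.7% and 67.2% over 5 transcripts. These shares have no error and were not tested.

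The remaining tropomyosin transcripts were listed in 1 line each. Among them are the retained-intron transcripts TPM1-210, lower in line 1 (-1.73, SE 0.55), and TPM1-217, lower in line 2 (-1.65, SE 0.45). TPM2-210 and TPM2-207 were lower in line 2 (-1.26, SE 0.39, and -1.14, SE 0.32), and their solved changes in line 1 were -1.08 and -0.73. TPM4-220, with the upstream exon, went from 890.3 counts in wild type to 1.41 in line 1 (-8.87, SE 2.80, q = 0.038), and its solved change in line 2 was -7.97. TPM4-201 (ENST00000300933.8), annotated for nonsense-mediated decay, rose in line 2 from 59.7 to 725 counts (3.59, SE 1.03), with 93.8% of its variance technical. TPM1-218 (ENST00000559281.6) fell from 2134 to 13.9 counts in line 2 (-7.21, SE 2.06, q = 0.016), and its solved level in line 1 was 311. The wide errors of TPM4-220 and TPM1-218 leave their sizes poorly set.

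**Figure D4:**
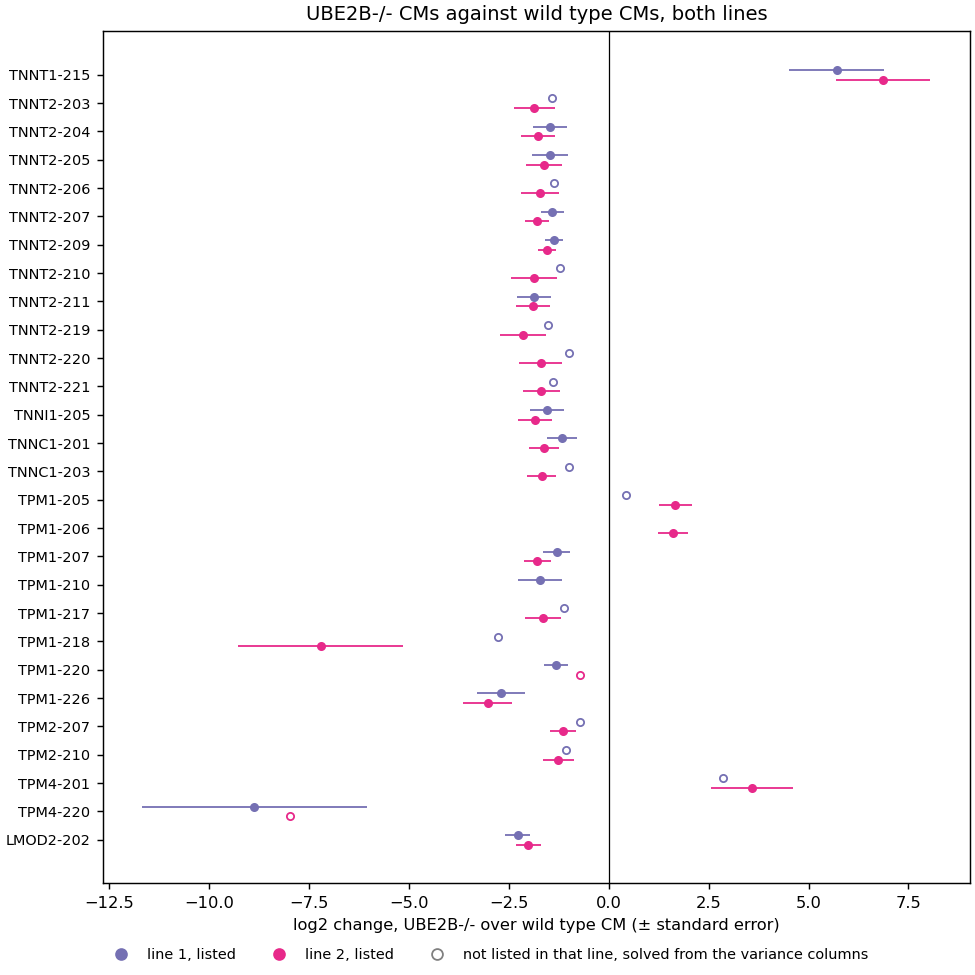
Changes of 28 member transcripts in both *UBE2B*-/- lines. The horizontal axis is the log2 change over wild type CM, filled points with a standard error are listed values, and open points without one were solved for a line that does not list the transcript. The troponin and LMOD2-202 points lie left of 0 in both lines apart from TNNT1-215, and the points right of 0 are those of TNNT1-215, TPM1-205, TPM1-206 and TPM4-201.

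The lines could be compared directly for the 11 transcripts listed in both, of which 10 were called lower and 1 higher in each. Their difference was divided by its SE, in which the wild type libraries cancel, and adjusted over the 1992 transcripts listed in both lines. None of the 11 reached an adjusted p of 0.05 in this Wald test, and none had an unadjusted p of 0.05 or less. The difference, line 2 minus line 1 in log2, was -0.30 for TNNT2-204 (95% interval -1.12 to 0.53), 0.27 for LMOD2-202 (-0.36 to 0.90) and -0.49 for TPM1-207 (-1.15 to 0.17). For TNNT1-215 it was 1.17 (-1.15 to 3.48). With intervals this wide, the lines are not shown to act alike. Requiring a listing in both lines also favours transcripts that changed alike. The 15 transcripts with a solved change in the other line were not tested, among them TPM1-205 (0.42 in line 1, 1.67 in line 2).

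Markers of other cell types moved with the mutant groups. Of 7 fibroblast or mesenchymal genes, 3 were listed in line 1 and 5 in line 2, all higher. In line 1 *PDGFRA* was listed through a retained-intron transcript, at 0 counts in wild type and 27.8 in the line. *COL3A1*, a fibrillar collagen, went from 7392 counts in wild type to 84231 in line 1 and 207028 in line 2 (3.51 and 4.81, SE 0.79). Of 9 cardiomyocyte markers, 6 were lower in line 1 and 7 in line 2, and 0 were higher. *ACTN2*, *MYBPC3*, *NPPA*, *PLN* and *RYR2* were listed in both lines through the coding transcript that rose from CP to CM. *MYL7* was listed through transcripts at 487 (line 1) and 6153 counts (line 2) in wild type. Its transcript at 79957 counts at CM was listed in neither line. *MYH6* was listed in line 2 through a retained-intron transcript at 501 counts in wild type. *ACTN2*, the Z-disc actinin, went from 16486 to 5571 and 4719 (-1.57 and -1.80, SE 0.42), and *RYR2*, the calcium release channel, changed by -2.61 and -2.13 (SE 0.56). Of 5 smooth muscle genes, only *CNN1* was listed, lower in both lines (-1.87 and -1.84, SE 0.28). That was a transcript at 726 counts in wild type, and not the one at 6504 counts at CM that rose from CP to CM. None of 8 skeletal muscle genes was listed in either line. Of 5 endothelial genes *KDR* was higher in line 2 (1.79, SE 0.55, q = 0.029), of 6 endoderm or epithelial genes *EPCAM* was lower in line 2 (-5.64, SE 1.78, q = 0.037), and none of either list was listed in line 1. How much of the lower troponin and tropomyosin levels goes with this shift in markers was not tested.

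The 23 partner genes of the thin filament were those for actins, nebulins, skeletal troponins, tropomodulins, other leiomodins, and capping, assembly or turnover proteins of actin. The actin gene *ACTA2* is also 1 of the smooth muscle markers. From CP to CM, 17 of the 23 were listed, 14 called higher and 1 lower. Their median log2 change was 2.49, against 0.63 for all listed transcripts. The largest z values were those of *FHOD3*, a formin of the sarcomere (7.26, SE 0.30), *CFL2*, the muscle cofilin (2.81, SE 0.16), and *LMOD1*, the smooth muscle leiomodin (3.003, SE 0.19). *CAPZB*, the beta subunit of the barbed-end capping protein, was the one that fell (-1.16, SE 0.27). In line 1, 9 of the 23 were listed, 8 lower and 1 higher. In line 2, 10 were listed, 7 lower, 1 higher and 2 under the limit on size. *CFL2* was lower in both (-1.33 and -1.39, SE 0.24). *CAP2*, a cyclase-associated protein, was lower in both (-1.57 and -1.28, SE 0.31), as was *NEBL*, the cardiac nebulin relative (-1.84 and -2.04, SE 0.41). *CAPZB* was again alone in the other direction (1.22 and 1.10, SE 0.27). *CAPZA2*, listed through a transcript annotated for nonsense-mediated decay, had values of -0.94 and -0.82 (SE 0.19), the second under the limit on size. At the earlier transitions, 2 partners were higher and 3 lower from iPSC to M, 7 and 1 from M to CMes, and 5 and 1 from CMes to CP.

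The pattern nearest to that of TNNT2-204 was sought among the 1219 transcripts listed, as it is, from CP to CM and in both lines. Likeness was the Euclidean distance in the 3 log2 changes. The nearest genes were *SLC8A1* (distance 2.41), *PALLD* (3.22), *DMD* (3.41), *MYBPC3* (3.56) and *MLIP* (3.56). The distance is set mostly by the size of the CP to CM change, which for TNNT2-204 depends on the pseudocount.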

How the data were processed

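RNA-seq of 21 libraries was analysed from 6 deposited tables, of which 4 compare neighbouring stages and 2 compare a *UBE2B*-/- line with wild type. Groups came from the sample labels. Reads were trimmed by the authors (FASTX-Toolkit), assigned to hg38 transcripts by kallisto, and compared by the Wald test of sleuth. Each deposited row has a p-value and a q-value, the effect b with its standard error and a mean, all as a natural log of estimated counts plus 0.5, and variance scores from the authors' fit on the squared natural-log scale. The b, p-value and q-value columns are the authors' own comparisons, and the tables hold 0 columns of values per library, so depth per library is unknown and precision is given by the standard errors.

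From these columns, group means, log2 changes, the number of transcripts tested and, for transcripts listed in 1 line, the change in the other line were computed (Python 3.11.15, scipy 1.17.1). The identities used were checked on every listed row, and the solving step was tested on simulated data. For a call, the q-value had to be 0.05 or less and b had to reach 0.585 in size. Of 79 listed member transcripts, 76 were found in GENCODE 44 (GRCh38) by identifier, 11 of them in another version; TNNT2 and TNNI1 transcripts not found have no length or exon class. Exon sequences were read from GRCh38. Stage levels were put on 1 scale by the median offset of shared transcripts. The members, gene lists and tests were chosen with earlier results of these data known, and the exon classes after the changes were seen. A gene is described by its listed transcript with the highest mean, and others were named when called the opposite way, called in both lines or largest in z. Alternatives were other limits on size and q-value, a t distribution, the transcript's own variance, a minimum level, 1 transcript a gene and coding transcripts only.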

Additional observations from a re-analysis of the deposited data

How the results depend on the processing

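Counts of called members, higher and lower, were compared under 8 alternatives for the 6 comparisons. A size limit of 0.405 on absolute b and no size limit left all 12 counts within 1.5 times. The transcript's own variance left all 12 unchanged, but it is no check. It can only lower a q-value, and every listed transcript already passes that limit. A t distribution gave 14 higher and 0 lower from CP to CM and 0 in every other comparison and direction. Over all genes it kept 561 calls from CP to CM, 1 from CMes to CP and 0 in the other comparisons. The cause was not tested. At a q-value of at most 0.01, lower calls dropped to 5 from iPSC to M, 6 from CP to CM, 7 in line 1 and 11 in line 2. With 1 transcript a gene, counts of higher and lower were 0 and 2 from iPSC to M, 4 higher from M to CMes, 3 and 1 from CMes to CP, 6 and 4 from CP to CM, 6 lower in line 1, and 2 and 6 in line 2. Coding transcripts alone gave 19 higher from CMes to CP and 28 from CP to CM. A mean of at least 10 counts left 0 higher in line 1. Without a size limit, partner genes numbered 5 lower from iPSC to M and 9 higher from CMes to CP. The difference between the lines, taken over the 11 members listed in both, had 0 calls with a normal or a t distribution. No paired analysis was possible because the tables hold no value per library, and for the same reason no library could be left out or tested for standing apart. Division of counts between near-identical transcripts is an estimate, and depth is unknown.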
